A study of Homo sapiens with 12 samples.

Results

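Replication-independent histone genes were followed in HepG2 cells, an established human liver cancer line, by their mRNA. The genes were taken by their symbols, as members of one gene class. The 9 described here, H1FX, H2AFX, H2AFZ, H2AFV, H2AFJ, H2AFY, H2AFY2, H3F3A and H3F3B were found among the 16389 genes of the count table, and all 9 had enough reads to be tested in every comparison. The cells were held for 48 h in medium with 5.5 mM glucose (low glucose, LG) or 20 mM glucose (high glucose, HG). Some cultures at each glucose level then received 1 mM valproic acid (VPA) for another 12 h, and these groups are called LGV and HGV. VPA is a fatty acid used against epilepsy that inhibits histone deacetylases. Each group had 3 libraries of poly(A) selected RNA. All 12 libraries came from one cell line, so they model 1 liver tumour and not liver tissue. The sources do not state whether replicate libraries came from separate cultures, and the p-values then measure the spread between these libraries, which may be technical. Whether untreated cells were harvested at the same total culture time as VPA-treated cells is not stated, so VPA and culture time cannot be told apart.

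Most histone protein is made in S phase from clustered genes whose mRNAs end in a stem loop and lack a poly(A) tail. The replication-independent genes lie outside these clusters, and most are transcribed throughout the cell cycle, and in cells that no longer divide, into polyadenylated mRNAs. H2AFX makes both a stem-loop mRNA without a poly(A) tail and a longer polyadenylated one, and libraries made from poly(A) RNA mainly hold the second form. The products of these genes replace or supplement the canonical histones: linker histones bind where DNA enters and leaves the nucleosome, H2A variants mark promoters, DNA breaks or silent chromatin, and the H3.3 variant fills in nucleosomes at active genes. Symbols are those of the count table. The current names are H1-10 for the linker histone, H2AX, H2AZ1, H2AZ2, H2AJ, MACROH2A1 and MACROH2A2 for the H2A variants, and H3-3A and H3-3B for the H3.3 genes.

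Counts per library summed to between 29798442 and 45572694 reads. Values below are CPM, read counts scaled to library size with TMM factors, and errors are the SD over 3 libraries unless stated. All 10 hepatocyte and HepG2 markers checked were present, with summed levels of 52075 to 58768 CPM in LG, 53058 to 60933 CPM in HG, 40082 to 41009 CPM in LGV and 47022 to 61653 CPM in HGV. Of the 6 fibroblast markers 2 were in the table, and COL1A2, COL3A1, DCN and THY1 were absent. The 4 leukocyte markers checked, PTPRC among them, were all absent, and 2 of the 4 endothelial markers were present. The summed level of the fibroblast markers present was 37.9 to 58.3 CPM in LG, 18.8 to 29.3 in HG, 32.2 to 40.5 in LGV and 26.3 to 32.9 in HGV, nearly all of it from PDGFRB. The endothelial sum stood at 2.21 to 4.85 CPM over all libraries. In bulk RNA, fewer cells expressing a gene and less of its RNA per cell cannot be told apart.

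The pair of genes for H3.3 encodes the same protein from different mRNAs. H3F3A lies at chr1:226249552-226259720 on the plus strand of GRCh37 and H3F3B at chr17:73772515-73781974 on the minus strand, each with 4 exons in its main transcript. Over the 408 coding bases the mRNAs differed at 88 positions, of which 24 fell in the first 120 bases. That stretch of the GRCh37 reference is printed below, from the start codon, because it shows how the reads of this pair can be told apart. Capitals in H3F3B mark the bases that differ from H3F3A.
H3F3A: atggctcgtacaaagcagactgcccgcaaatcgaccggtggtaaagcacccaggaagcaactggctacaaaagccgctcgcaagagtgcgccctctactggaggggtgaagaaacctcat
H3F3B: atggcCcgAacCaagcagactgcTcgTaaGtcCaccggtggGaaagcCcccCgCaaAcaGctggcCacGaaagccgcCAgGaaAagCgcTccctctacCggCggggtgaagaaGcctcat
The processed pseudogene H3F3AP4 (chr2:175584636-175585046, plus strand) had 0 differences from H3F3A over the same 408 coding bases. Reads of 50 nt were counted only at a mapping quality of at least 10, which is meant to remove reads that match several places. Of the 1021 windows of 50 bases in the H3F3A transcript, 61 (5.97%) occurred nowhere else in the genome, and 0 of its 359 coding windows did. In H3F3B, 87.3% of windows and 74.1% of coding windows were unique. The H3F3A count therefore rests on a small part of its transcript. Reads were also counted at H3F3AP4 itself, 36 to 87 per library, against 55 to 125 at H3F3A. Whether those came from H3F3A mRNA cannot be told from the counts.

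Among the other genes the share of unique windows was lower in the H2A.Z pair, with 86.7% for H2AFZ and 89.0% for H2AFV, and was 99.7% for H2AFX. It was 100% for H1FX, H2AFJ, H2AFY and H2AFY2. Counts cannot separate the spliced forms of H2AFY, which encodes macroH2A1. Exons of H1FX overlapped an antisense RNA, H1FX-AS1, by 345 bases, exons of H2AFY overlapped PITX1-AS1 by 175, exons of H2AFZ overlapped H2AZ1-DT by 61 and exons of H2AFY2 overlapped AIFM2 by 13, in each case on the other strand. Whether counting used strand is not stated, and reads from these overlaps cannot be assigned with certainty.

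**Figure D1:**
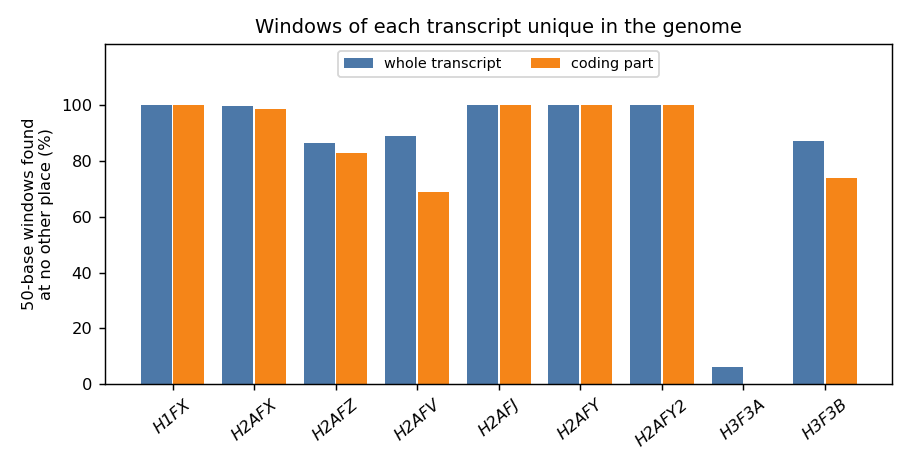
Share of 50-base windows (%) of each gene's main transcript found at no other place in GRCh37, for the whole transcript and its coding part. H3F3A stands apart, with 5.97% over the transcript and none in the coding part.

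Between genes, levels were compared as CPM per kb of the main transcript. In LG the order was H2AFZ (205 ± 32.6), H3F3B (139 ± 15.4), H2AFY (71.8 ± 2.39), H1FX (55.5 ± 1.97), H2AFY2 (26.2 ± 1.78), H2AFV (25.7 ± 2.62), H2AFJ (22.9 ± 2.15), H2AFX (21.7 ± 2.12) and H3F3A (2.62 ± 0.288). From H2AFY2 to H2AFX, neighbours in this order differed by less than the sum of their SDs. Scaled to the length with unique windows instead, H3F3A stood at 46.0 ± 5.06 and H3F3B at 162 ± 17.9 CPM per kb in LG. In HG the top of the order was the same, with H2AFZ at 198 ± 6.74 and H3F3B at 184 ± 10.7 CPM per kb, and H2AFZ and H3F3B differed by less than the sum of their SDs. Scaled to the length with unique windows they stood at 243 ± 8.24 and 215 ± 12.5 in HG, and differed by more than that sum. With VPA this pair differed by glucose level. In LGV H2AFZ stood at 238 ± 33.3 and H3F3B at 123 ± 3.00 CPM per kb, and in HGV they stood at 212 ± 8.41 and 215 ± 23.7, within their SDs.

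The 9 genes together took 0.0873% ± 0.00875 of the reads in LG, 0.111% ± 0.00540 in HG, 0.0976% ± 0.00228 in LGV and 0.140% ± 0.00745 in HGV. Every library at 20 mM glucose lay above every library at 5.5 mM. H3F3B alone made up 39.3% ± 2.42 of the reads of the 9 genes in LG, 44.3% ± 1.05 in HG, 35.0% ± 1.57 in LGV and 44.6% ± 1.39 in HGV.

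**Figure D2:**
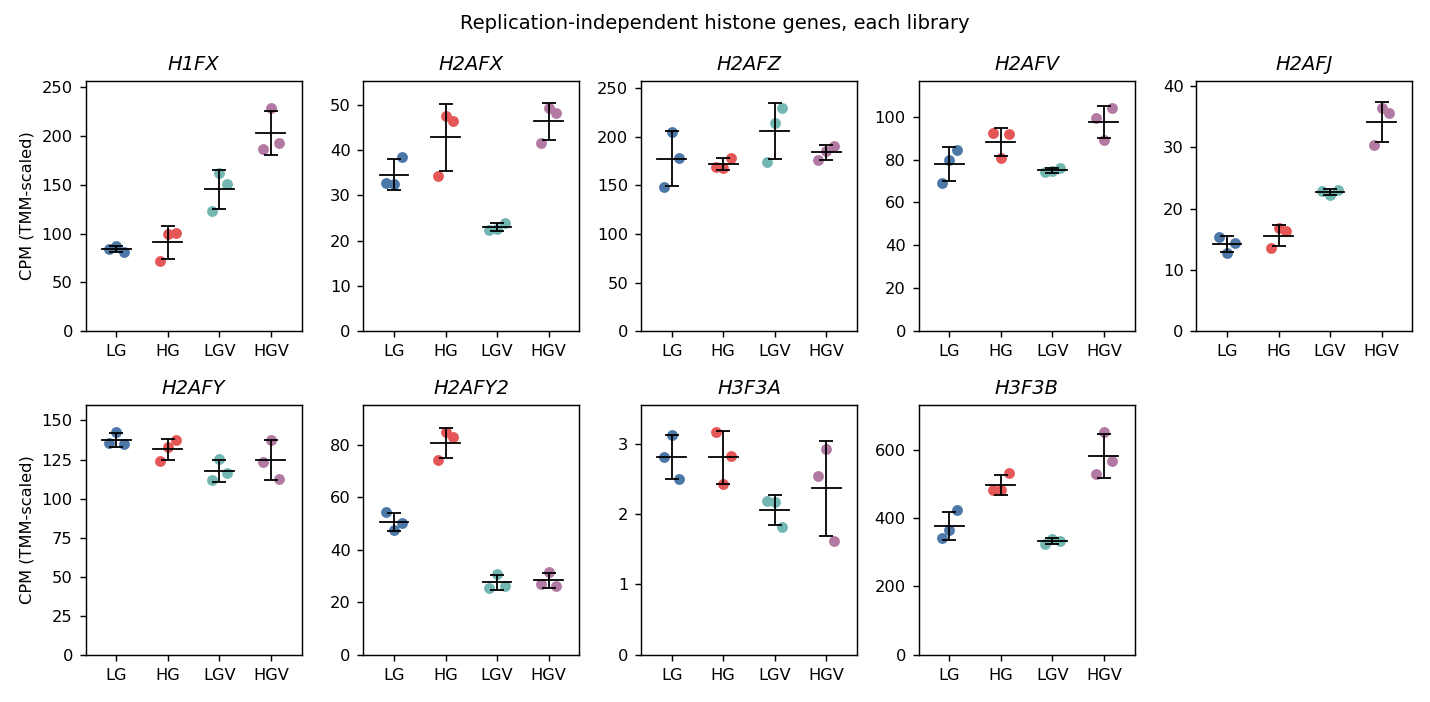
CPM (TMM-scaled, linear axis from 0) of each gene in each of the 12 libraries by group. Points are libraries, long bars the mean of 3 and whiskers 1 SD. H2AFJ and H1FX are highest in HGV, H2AFY2 is lowest in both VPA groups, and H2AFX is lowest in LGV.

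The 250 bases upstream of the annotated start are printed for 5 genes whose mRNA differed between groups, to show the DNA next to which their transcription starts. RefSeq sequences on GRCh38.p14 matched all 9 genes. Each is written 5′ to 3′ in the direction of transcription. H1FX (chr3:129316287-129316536, minus strand) and H2AFJ (chr12:14774155-14774404, plus strand) were higher with VPA at both glucose levels, and H2AFY2 (chr10:70052596-70052845, plus strand) was lower. H2AFX (chr11:119095466-119095715, minus strand) and H3F3B (chr17:75779780-75780029, minus strand) differed with glucose under VPA. Capitals mark CCAAT on either strand (CCAAT or ATTGG) and TATAAA on either strand (TATAAA or TTTATA), and no marked stretch overlaps another.
H1FX: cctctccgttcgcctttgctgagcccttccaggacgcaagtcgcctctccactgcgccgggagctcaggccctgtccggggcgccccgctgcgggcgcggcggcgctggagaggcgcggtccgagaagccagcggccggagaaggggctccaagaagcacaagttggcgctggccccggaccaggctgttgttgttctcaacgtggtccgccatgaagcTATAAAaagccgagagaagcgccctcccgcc
H2AFJ: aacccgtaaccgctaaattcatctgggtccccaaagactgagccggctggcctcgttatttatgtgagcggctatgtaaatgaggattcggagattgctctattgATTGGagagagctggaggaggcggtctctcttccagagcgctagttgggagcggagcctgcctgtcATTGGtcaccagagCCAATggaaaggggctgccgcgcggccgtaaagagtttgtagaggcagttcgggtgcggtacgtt
H2AFY2: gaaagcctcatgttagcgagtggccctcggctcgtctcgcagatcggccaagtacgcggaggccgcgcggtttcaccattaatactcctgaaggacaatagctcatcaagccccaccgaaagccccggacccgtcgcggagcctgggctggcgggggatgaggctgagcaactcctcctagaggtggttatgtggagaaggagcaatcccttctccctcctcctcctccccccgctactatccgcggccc
H2AFX: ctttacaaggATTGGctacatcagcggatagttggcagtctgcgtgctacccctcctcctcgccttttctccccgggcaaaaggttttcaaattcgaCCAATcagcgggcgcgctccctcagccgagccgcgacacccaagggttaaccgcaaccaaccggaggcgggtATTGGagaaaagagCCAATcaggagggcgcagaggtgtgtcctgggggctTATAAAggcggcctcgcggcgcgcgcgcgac
H3F3B: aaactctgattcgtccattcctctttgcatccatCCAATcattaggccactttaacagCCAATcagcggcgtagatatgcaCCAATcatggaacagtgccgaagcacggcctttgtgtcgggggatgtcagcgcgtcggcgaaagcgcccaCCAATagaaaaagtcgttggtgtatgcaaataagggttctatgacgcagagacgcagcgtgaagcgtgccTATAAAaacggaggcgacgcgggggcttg
CCAAT occurred 4 times upstream of H2AFX, H3F3B and H2AFV and 3 times upstream of H2AFJ and H2AFZ. Of 35116 RefSeq promoters cut to the same length, 32.0% held at least 1 CCAAT, 9.53% at least 2 and 0.87% at least 4. H1FX and H2AFY2 held 0, and the several annotated starts of H2AFY and H3F3A held 0 to 2 and 0 to 1. TATAAA occurred once upstream of H1FX, H2AFX, H2AFZ and H3F3B, and 10.7% of all promoters held it. Of the genes that rose with VPA, H2AFJ held CCAAT without TATAAA and H1FX held TATAAA without CCAAT.

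The first comparison asked how high glucose alone altered the genes. Of the 9, 2 rose in HG against LG at an FDR of 0.05 or less (edgeR's quasi-likelihood test with Benjamini-Hochberg adjustment over all genes) and 0 fell. They were H2AFY2, which encodes macroH2A2, a variant with a large extra domain found in silent chromatin, and H3F3B. Among all 15452 genes tested, 24.7% passed, 12.0% higher and 12.7% lower. Median log2 fold changes were 0.16 for the 9 genes and 0.01 for all genes.

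H2AFY2 (chr10:71812300-71872038, plus strand, GRCh37) measured 54.3, 47.5 and 50.1 CPM in LG and 74.0, 85.0 and 83.0 CPM in HG. The groups did not overlap, and the log2 fold change was 0.70 ± 0.13 (SE), an FDR of 0.00063. H3F3B measured 343, 364 and 423 CPM in LG and 481, 481 and 531 CPM in HG. Its groups did not overlap and its log2 fold change was 0.42 ± 0.12 (SE) at an FDR of 0.0175, but the call was lost without HG replicate 3 (FDR 0.0734) or without LG replicate 1 (FDR 0.0729).

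The others did not pass. H2AFX, the variant phosphorylated next to DNA breaks (chr11:118964584-118966175, minus strand, 1 exon), measured 32.8, 32.5 and 38.5 CPM in LG and 34.4, 47.5 and 46.5 CPM in HG. HG replicate 1 lay within the LG range, and the log2 fold change was 0.33 (95% interval 0.01 to 0.65, FDR 0.115). Without that library it was 0.48 with an FDR of 0.0315. For H2AFV, H2AFJ and H1FX the log2 fold changes were 0.20, 0.16 and 0.14, and for H3F3A, H2AFZ and H2AFY they were 0.02, -0.02 and -0.04. The intervals reached 0.46 for H2AFV, 0.49 for H2AFJ and 0.43 for H1FX.

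The same question was put to VPA-treated cells by comparing HGV with LGV. Here 5 of 9 genes rose and 0 fell, where 40.7% of 16208 genes passed, 21.2% higher and 19.5% lower. Median log2 fold changes were 0.36 for the 9 genes and 0.01 for all genes. The 5 were the linker histone H1FX, 3 H2A variants (H2AFX, H2AFJ and H2AFV) and H3F3B.

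H2AFX measured 22.3, 22.7 and 24.0 CPM in LGV and 41.6, 49.3 and 48.1 CPM in HGV. Its log2 fold change of 0.99 ± 0.12 (SE, FDR 9.5e-06) was the highest of the 9, a fold of 1.99 with a 95% interval from 1.67. H3F3B measured 323, 339 and 334 CPM in LGV and 528, 653 and 567 CPM in HGV, a log2 fold change of 0.79 ± 0.13 (SE, FDR 0.00014). In neither gene did the groups overlap.

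H2AFJ, a variant of H2A that differs from it mainly at the tail (chr12:14927339-14930936, plus strand), measured 22.9, 22.2 and 23.0 CPM in LGV and 30.4, 36.4 and 35.6 CPM in HGV (log2 fold change 0.57 ± 0.12, SE, FDR 0.0013). H1FX, a linker histone of wide expression (chr3:129033614-129035129, minus strand), measured 123, 162 and 151 CPM in LGV and 187, 229 and 193 CPM in HGV (log2 fold change 0.47 ± 0.13, SE, FDR 0.0096). H2AFV, one of the pair for H2A.Z (chr7:44866390-44887686, minus strand), measured 74.1, 74.6 and 76.0 CPM in LGV and 99.4, 89.2 and 104 CPM in HGV. None of these groups overlapped. The log2 fold change of H2AFV was 0.36 ± 0.12 (SE, FDR 0.0177), and its call was lost without HGV replicate 1 or 3 or LGV replicate 2 or 3 (FDR 0.0535, 0.0794, 0.0609 and 0.0713).

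H2AFY2, which rose with glucose in untreated cells, measured 25.6, 30.8 and 26.3 CPM in LGV and 27.1, 31.5 and 26.4 CPM in HGV. These groups overlapped, with a log2 fold change of 0.02 and a 95% interval from -0.25 to 0.29. For H2AFZ, H2AFY and H3F3A the log2 fold changes were -0.18, 0.06 and 0.19.

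**Figure D3:**
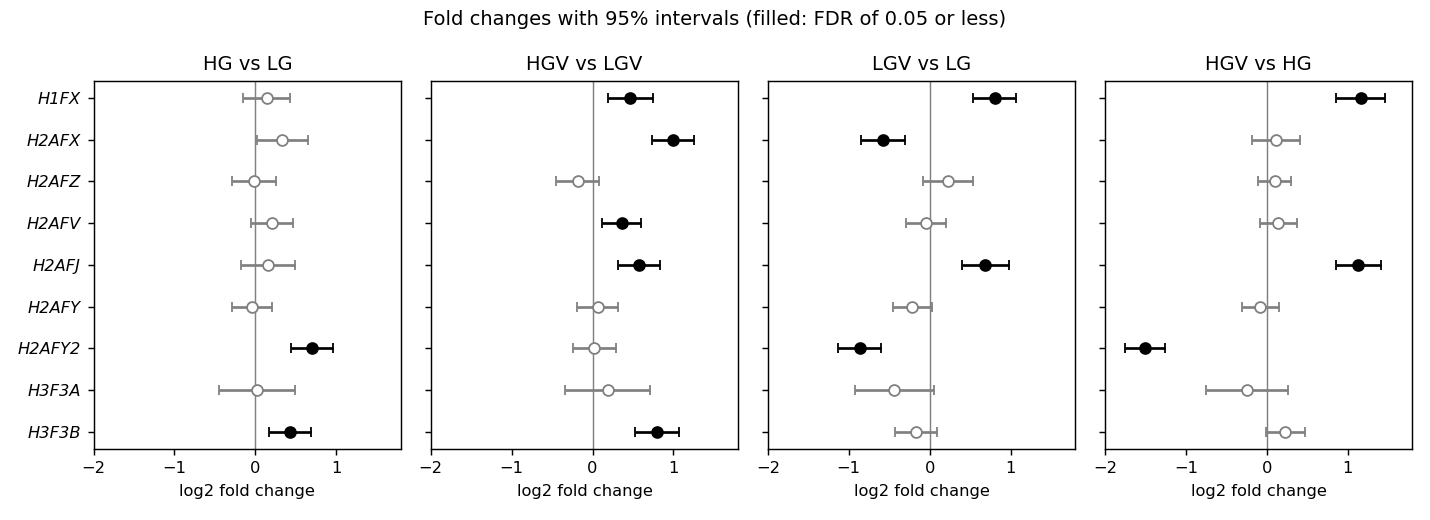
Log2 fold changes of the 9 genes in the 4 pairwise comparisons with 95% intervals, filled where the FDR was 0.05 or less. The glucose comparisons hold filled points to the right of 0 alone, and the VPA comparisons hold them on both sides.

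The effect of VPA was then measured at each glucose level. At 20 mM glucose, 2 of 9 genes rose, H1FX and H2AFJ, and 1 fell, H2AFY2. Of 16188 genes tested, 46.1% passed, 25.8% higher and 20.2% lower. Medians of the log2 fold change were 0.11 for the 9 genes and 0.02 for all genes. At 5.5 mM glucose the same directions were seen for H1FX, H2AFJ and H2AFY2, and H2AFX fell as well. That made 2 of 9 higher and 2 lower, where 41.6% of 15944 genes passed, 21.7% higher and 19.9% lower, with medians of -0.17 for the 9 genes and -0.01 for all genes. The comparisons of HGV with HG and of HG with LG share the HG libraries, and each group likewise enters 2 pairwise comparisons.

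H1FX measured 84.1, 87.1 and 81.1 CPM in LG, against the LGV values above, and its log2 fold change was 0.80 ± 0.12 (SE, FDR 0.00013). In HG it measured 71.8, 100.1 and 101 CPM, and the log2 fold change to HGV was 1.16 ± 0.14 (SE, FDR 2.8e-05). Every library with VPA lay above every library without it. H1FX-AS1, on the other strand, was counted at 1.00 ± 0.224 CPM in LG, 1.19 ± 0.244 CPM in HG, 0.742 ± 0.140 CPM in LGV and 0.451 ± 0.0394 CPM in HGV. It fell from HG to HGV by 1.39 on the log2 scale (FDR 0.0018), while its log2 fold change from LG to LGV was -0.41 (FDR 0.33), directions opposite to those of H1FX.

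H2AFJ measured 15.4, 12.8 and 14.4 CPM in LG and 13.6, 16.8 and 16.3 CPM in HG, below every VPA library. Its log2 fold changes were 0.69 ± 0.14 (SE, FDR 0.00099) from LG to LGV and 1.13 ± 0.13 (SE, FDR 1.5e-05) from HG to HGV. H2AFY2 fell from LG to LGV by 0.87 on the log2 scale (SE 0.12, FDR 5.7e-05) and from HG to HGV by 1.51 (SE 0.11, FDR 5.1e-07). Its 6 VPA libraries lay between 25.6 and 31.5 CPM, below every untreated library, and HGV stood at 0.351 of the HG level.

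H2AFX fell from LG to LGV by 0.58 on the log2 scale (SE 0.13, FDR 0.0020), with no overlap between the groups. From HG to HGV its log2 fold change was 0.11 (95% interval -0.18 to 0.41), and the groups overlapped. H3F3B, which rose with glucose, had log2 fold changes of 0.23 from HG to HGV (FDR 0.116) and of -0.17 from LG to LGV (FDR 0.296). With scaling by library size alone, the first became 0.35 and passed (FDR 0.0136).

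H2AFY, H2AFZ and H3F3A did not pass in any comparison. H2AFY (chr5:134670071-134735604, minus strand), which encodes macroH2A1, ranged from 112 to 143 CPM over the 12 libraries, with log2 fold changes from -0.21 to 0.06. H2AFZ (chr4:100869243-100871512, minus strand), the main gene for H2A.Z, ranged from 149 to 230 CPM, with log2 fold changes from -0.18 to 0.23. The interval of H2AFZ was widest at low glucose, from -0.08 to 0.54 for LGV against LG, where it passed with scaling by library size alone (0.39, FDR 0.0288). H3F3A, with 55 to 125 reads per library, ranged from 1.62 to 3.17 CPM. Its 95% interval for LGV against LG ran from -0.93 to 0.05.

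Whether VPA acted differently at the 2 glucose levels was tested as an interaction over the 12 libraries. None of the 9 genes passed at an FDR of 0.05 with edgeR, where 7 of 16389 genes (0.0427%) did. At an unadjusted p of 0.05 or less there were 4 of the 9, against 11.3% of all genes. H2AFX had the largest positive difference, 0.70 ± 0.19 (SE, unadjusted p = 0.0013, FDR 0.132), and H2AFY2 the largest negative one, -0.63 ± 0.17 (SE, unadjusted p = 0.0013, FDR 0.132). H2AFJ (0.46) and H3F3B (0.41) were the others. DESeq2's Wald test called 1 of the 9, H2AFY2 (difference -0.66, adjusted p = 0.0355), and 162 of all 16389 genes.

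**Figure D4:**
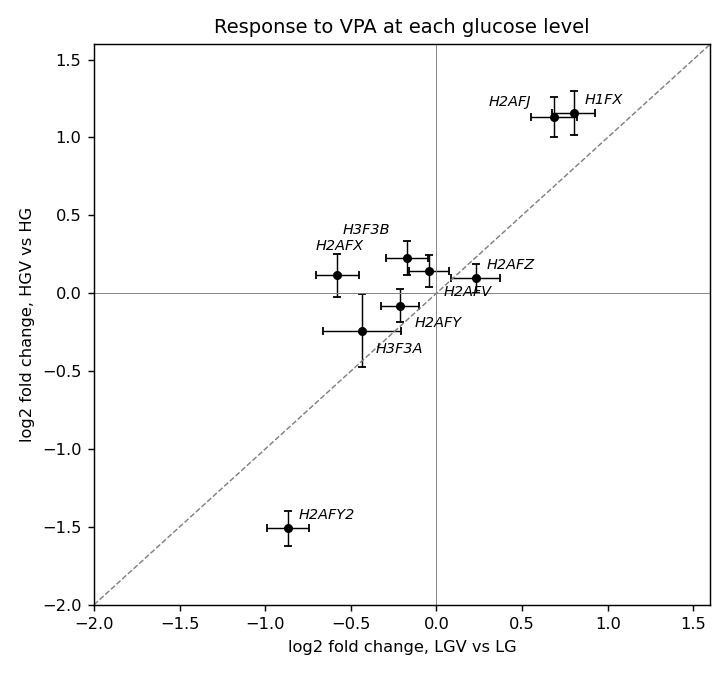
Log2 fold change with VPA at 5.5 mM glucose (x axis) and at 20 mM glucose (y axis) for each gene, with SE as whiskers and a dashed line of equal response. H1FX and H2AFJ lie high on both axes and H2AFY2 low on both. H2AFX, at -0.58 and 0.11, and H2AFY2, at -0.87 and -1.51, depart furthest from the line, and neither interaction passed with edgeR (FDR 0.132 for each).

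Ratios of reads between related genes in 1 library do not depend on scaling, and such ratios were tested by exact two-sided permutation of labels within strata (400 arrangements, smallest p 0.005). Of 8 tests adjusted together, 6 are given. The ratio of H2AFY2 to H2AFY was 0.401, 0.333 and 0.372 in LG, 0.596, 0.640 and 0.603 in HG, 0.229, 0.246 and 0.227 in LGV and 0.220, 0.229 and 0.235 in HGV. VPA lowered it by 1.04 on the log2 scale (exact permutation adjusted p = 0.0133), with -0.65 at low and -1.43 at high glucose. The glucose difference was 0.35 on average (exact permutation adjusted p = 0.0914), made of 0.74 without VPA and -0.04 with it.

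In the H2A.Z pair the ratio of H2AFV to H2AFZ rose with glucose by 0.38 on the log2 scale (exact permutation adjusted p = 0.0133). It was 0.390 to 0.475 in LG and 0.482 to 0.546 in HG, and 0.331 to 0.426 in LGV and 0.481 to 0.565 in HGV, with no overlap between glucose levels. The difference with VPA was -0.11 (exact permutation adjusted p = 0.26). The ratio of H3F3B to H3F3A rests on 55 to 125 H3F3A reads per library and leaves out the 36 to 87 counted at H3F3AP4. How reads were split between H3F3A and this pseudogene was not tested. The ratio was 117 to 169 in LG, 152 to 199 in HG, 148 to 184 in LGV and 207 to 350.4 in HGV. It rose with glucose by 0.53 (exact permutation adjusted p = 0.02) and with VPA by 0.39 (exact permutation adjusted p = 0.0467), and the VPA call was kept only without HGV replicate 1 or LG replicate 3 among the fits that left out a library (adjusted p up to 0.0971 in the others).

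**Figure D5:**
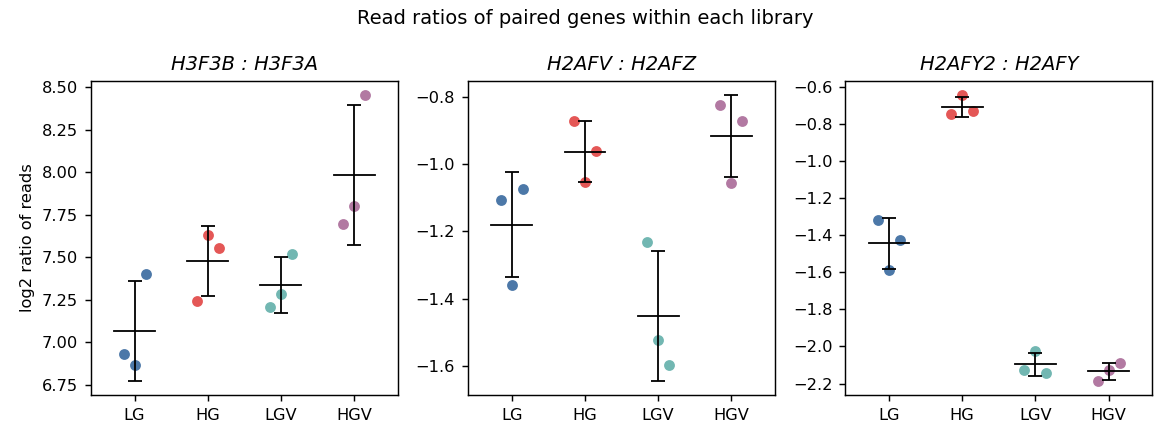
Log2 ratio of reads of paired genes in each library by group, with the mean of 3 (long bar) and 1 SD (whiskers); the y axes do not start at 0. The H2AFY2 to H2AFY ratio separates HG, LG and the VPA groups, and the H2AFV to H2AFZ ratio is higher at 20 mM glucose.

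The machinery that places or removes these histones was described with a list of 33 genes for chaperones and remodelling complexes, all of them tested. In HG against LG, 3 rose and 3 fell (9.09% each, where 12.0% and 12.7% of all genes did), UBN1 and HJURP among them, named after their values were seen. With scaling by library size alone the split was 5 higher and 2 lower. Among all genes that scaling gave 2172 higher and 1297 lower, against 1854 and 1959 with TMM factors. ASF1B, an H3-H4 chaperone of dividing cells, rose by a log2 fold change of 1.70 and ANP32E, which strips H2A.Z from nucleosomes, by 0.65. SRCAP, the ATPase that exchanges H2A.Z into nucleosomes, fell by 0.55 on the log2 scale and DAXX, an H3.3 chaperone, fell by 0.54.

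With VPA, 1 gene of the list rose (3.03%, against 21.7% of all genes) and 9 fell (27.3%, against 19.9%) at low glucose. Scaling by library size alone made this 4 higher and 6 lower. Among all genes it gave 4500 higher and 1956 lower, against 3461 and 3177 with TMM factors. At high glucose 5 rose (15.2%, against 25.8% of all genes) and 6 fell (18.2%, against 20.2%). Median log2 fold changes over the list were -0.20 at low and -0.18 at high glucose. KAT5, the acetyltransferase of the complex that also exchanges H2A.Z, had log2 fold changes of -1.50 from LG to LGV and -1.17 from HG to HGV. SRCAP stood at -1.16 and -1.04, and INO80, an ATPase of another remodelling complex, at -0.71 and -0.76. RBBP4, a chaperone of H3 and H4 found in several complexes, fell by 0.56 on the log2 scale from HG to HGV, and ACTR6, a subunit of the SRCAP complex, rose by 0.84 from LG to LGV. In HGV against LGV, 6 rose (18.2%, against 21.2% of all genes) and 4 fell (12.1%, against 19.5%), a split that became 10 higher and 2 lower with library size or upper quartile factors. All genes split into 3761 higher and 2309 lower with library size and 4126 and 2375 with upper quartile factors, against 3444 and 3160 with TMM factors. Those called with TMM factors included ASF1B up by 3.02, CHAF1B of the replication-coupled assembly factor by 0.90, HJURP, the chaperone of CENP-A, by 0.80, and DAXX down, at a log2 fold change of -0.71. In the interaction, 0 of 33 passed with edgeR, where 0.0427% of all genes did. An unadjusted p under 0.05 was found for 4 of 33, where 11.3% of all genes had one. DESeq2's Wald test called 1, ASF1B (difference 1.33, adjusted p = 0.0292), named after its values were seen, and 162 of all 16389 genes.

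Since canonical histones are made in S phase, 12 proliferation genes were read beside the variants. In HG against LG 6 of 12 rose, where 12.0% of all genes did, and 0 fell, including CDK1 (log2 fold change 1.15), MCM5 (0.76), TOP2A (0.65) and MCM2 (0.54). In HGV against LGV 9 of 12 rose, where 21.2% of all genes did, and 0 fell, including RRM2 (1.64), CDK1 (1.41), MCM5 (1.16) and MCM2 (1.03). With VPA 0 rose (against 21.7% of all genes) and 5 fell (41.7%, against 19.9%) at low glucose. Those that fell included MCM5 (-0.77), CCNA2 (-0.70), PLK1 (-0.66) and MCM2 (-0.62). At high glucose 2 rose (16.7%, against 25.8%), including PCNA (0.66), and 4 fell (33.3%, against 20.2%), including PLK1 (-0.85), AURKA (-0.65) and CCNA2 (-0.58). Of the 10 hepatocyte markers 2 rose in HG against LG, where 12.0% of all genes did, and 4 in HGV against LGV, where 21.2% did. In each of these comparisons 0 fell, where 12.7% and 19.5% of all genes did. With VPA 7 fell (70.0%, against 19.9% of all genes) and 0 rose (against 21.7%) at low glucose. At high glucose 3 fell (30.0%, against 20.2%) and 1 rose (10.0%, against 25.8%). The part of proliferation and hepatocyte genes in the result was not tested.

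The table held 28 genes with symbols of the replication-dependent clusters, the pseudogene HIST1H4PS1 among them, and selection for poly(A) tails depletes their stem-loop mRNAs. With glucose 3 of 27 tested rose and 3 fell in untreated cells (11.1% each, where 12.0% and 12.7% of all genes did). Under VPA 6 of 28 rose (21.4%, against 21.2%) and 1 fell (3.57%, against 19.5%). HIST1H2AI was higher in HG (log2 fold change 1.26), and HIST2H2BE and HIST1H2BC were lower (-0.94 and -0.92). With VPA 6 of 28 rose (21.4%, against 25.8% of all genes) and 1 fell (3.57%, against 20.2%) at high glucose, among them HIST1H4H (1.57), HIST1H2AG (0.96) and HIST1H1C (0.84), and 2 of 27 rose (7.41%, against 21.7%) and 4 fell (14.8%, against 19.9%) at low glucose. HIST1H2BC fell in both, at log2 fold changes of -1.04 and -1.14. Of 10 other variant genes named, CENPA and H3F3C were in the table, and neither passed in a comparison in which it was tested.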

How the data were processed

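Libraries of poly(A) selected RNA from HepG2 cells were read as 50 nt single-end reads in the study. The authors trimmed reads, used STAR for alignment to GRCh37 and obtained gene counts from featureCounts, keeping a mapping quality of at least 10. The deposited counts are raw and cover 16389 genes, the authors having dropped genes with a mean under 10 reads, and the submitters' notes also name bcl2fastq 2.17.1.14.

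The quasi-likelihood F test of edgeR 4.0.16 (R 4.3.3, TMM factors) was applied to counts from the libraries of each pair of groups, for genes with a mean of at least 10 reads, and adjusted over all of them. Calls used an FDR of 0.05 or less. The interaction used the 12 libraries. CPM used TMM factors over the 12 libraries. Log2 read ratios within a library (no reads added, with 0.5 added as an alternative) were tested by exact permutation in Python 3.11.15 (numpy 2.4.6, pandas 2.3.3, scipy 1.17.1). Windows of 50 bases were searched in GRCh37 on both strands, and gene positions and overlaps came from GENCODE. Plots used matplotlib 3.10.9.

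The members and lists were chosen with earlier results of these data known. Named genes were the members and, per list and comparison, up to 4 called genes with the smallest FDR, plus the 3 genes most like H2AFZ. Of the 10 members of the set 9 are described, and 1 member and 1 marker gene are not reported here. The scripts were tested on simulated data. Alternatives were DESeq2 1.42.0 (size factors, Wald test), upper quartile factors, library size, other filters, an FDR of 0.01, one fit of 12 libraries, the replicate block, and leaving out each library. Same-numbered libraries did not deviate together in every pair (correlations from -0.20 to 0.29), so no pairing was used. Replicates differed by more than sampling noise (chi-square per degree of freedom at least 10.2). No sequencing batch is named.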

Additional observations from a re-analysis of the deposited data

How the results depend on the processing

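Of 396 fold changes of the 9 genes under other settings, 384 kept their direction and side of the threshold, and of 324 recomputed without one library 304 did. The 396 include the FDR of 0.01, which changes only the threshold, so direction could not change there. Scaling by library size only shifted the median log2 fold change of all genes to 0.11 in HG vs LG, 0.15 in HGV vs HG and 0.16 in LGV vs LG, a shift that is part of the 0.35 of H3F3B in HGV vs HG. Higher calls made up 48.6%, 56.1%, 52.1% and 52.2% of all calls in HG vs LG, HGV vs HG, LGV vs LG and HGV vs LGV, against 62.6%, 68.1%, 69.7% and 62.0% with library size and 64.3%, 62.2%, 61.0% and 63.5% with upper quartile factors. Signs reversed, all without a call, for H2AFZ in HG vs LG (0.0757 with library size, 0.0688 with upper quartile factors), H2AFY in HG vs LG (0.0548 and 0.0494), H2AFY in HGV vs HG (0.0396) and H2AFV in LGV vs LG (0.115, and 0.0371 with upper quartile factors). H2AFZ in LGV vs LG passed with library size (0.39, FDR 0.0288). DESeq2's Wald test called 162 genes for the interaction against 7, with 1 of the 9 genes and 1 deposition gene. At an FDR of 0.01, 1852 genes were called in HG vs LG against 3813, and the calls among the 9 genes there fell to 1 from 2. Called deposition genes fell to 6 from 10 in LGV vs LG, where all calls fell to 4607 from 6638. In HGV vs LGV they also fell to 6 from 10, where all calls fell to 4263 from 6604. The cause of these differences was not tested.

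Leaving out single libraries gave 1 to 3 called genes of the 9 in HG vs LG (1 without HG replicate 3 or LG replicate 1), 3 to 3 in HGV vs HG, 4 to 4 in LGV vs LG, 4 to 5 in HGV vs LGV and 0 to 0 for the interaction. Called deposition genes ran from 3 to 7, 9 to 12, 6 to 12, 6 to 12 and 0 to 1. They were 3 without LG replicate 1 in HG vs LG, 6 without LGV replicate 1 in LGV vs LG, 6 without LGV replicate 3 in HGV vs LGV and 1 (ASF1B) without LG replicate 2 in the interaction. Calls among all genes in HG vs LG ran from 1933 (without LG replicate 1) to 5338, against 3813 with all libraries. Without HG replicate 3 they were 2076. They ran from 6083 to 7793 in HGV vs HG, 4942 to 6986 in LGV vs LG and 4516 to 7228 in HGV vs LGV. With all libraries these were 7456, 6638 and 6604. Over all genes the interaction gave 217 calls without LG replicate 2, 67 without LG replicate 3 and 22 without LGV replicate 1. The log2 ratio of H3F3B to H3F3A ran from 0.27 to 0.47 for VPA. Its exact permutation adjusted p ran from 0.0133 to 0.0971 in these fits, against 0.0467 with all libraries. Leaving out a library leaves fewer permutations, but adjusted p did not rise in every fit. For glucose in the H2AFV to H2AFZ ratio it ran from 0.01 to 0.03, against 0.0133 with all libraries. For VPA in the H2AFY2 to H2AFY ratio it ran from 0.01 to 0.02, against 0.0133. Signs reversed, none past the threshold, over these ranges: in HG vs LG H2AFZ -0.11 to 0.12, H2AFY -0.0627 to 0.0126 and H3F3A -0.0598 to 0.13, in HGV vs HG H2AFX -0.0439 to 0.20, in LGV vs LG H2AFV -0.13 to 0.0353, in HGV vs LGV H2AFY -0.0137 to 0.13 and H2AFY2 -0.0585 to 0.11, and in the interaction H3F3A -0.0217 to 0.42.

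With replicate number as a block, 2, 3, 4 and 5 of the 9 genes were called in the pairwise comparisons and 0 in the interaction, the counts found without pairing. Among all genes the block gave 3351 calls in HG vs LG, 8229 in HGV vs HG, 6971 in LGV vs LG, 7308 in HGV vs LGV and 13 in the interaction. Without it these were 3813, 7456, 6638, 6604 and 7. H3F3A had 55 to 125 reads per library.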

Other observations

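Over the 12 libraries and 16389 genes, the genes whose log2 CPM followed H2AFZ most closely were BUB3 (Pearson r = 0.912), of the mitotic checkpoint, WWTR1 (0.884) and MARCH5 (0.875). The points share libraries, scaling and treatment groups, and the values are a description of these libraries.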
